A study of Mus musculus with 60 samples.

Results

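Enzymes of sialic acid metabolism were followed in spleen leukocytes of young mice: Gne, Nans, Cmas, Cmah, St6gal1, St3gal1, Npl and Renbp. These 8 genes were chosen by name, as part of a list drawn up with the strain and age comparisons of these same mice already known. Every probe set whose symbol or alias in the array annotation was 1 of the 8 was taken, which gave 17 of the 45037 probe sets (11 on the 430A array and 6 on the 430B array). The genes were 8 of the 18193 that the annotation names by a single symbol. Because the list was made with the strain and age results in view, the p-values below describe where each probe set lay among all probe sets and are not independent evidence.

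RNA came from spleen leukocytes of untreated female mice that were not sorted into cell types. NOD, NON and C57BL/6 (C57) mice aged 2 or 4 weeks made 6 groups of 5. The NOD strain is prone to spontaneous autoimmune diabetes, while NON, a relative of it, and C57 are resistant and served as controls. The comparison asks how NOD leukocytes differ from those of either control early in life. Every one of the 30 mice was measured on 1 array of each type.

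Sialic acids are acidic sugars that cap the glycans of cell surface and secreted proteins, where they are read by lectins such as the Siglecs and hide the sugars beneath them. Cells make the common sialic acid Neu5Ac from UDP-GlcNAc through Gne and Nans, Cmas activates it to CMP-Neu5Ac, and sialyltransferases such as St6gal1 and St3gal1 attach it to glycans. Cmah hydroxylates CMP-Neu5Ac to the Neu5Gc form, which is abundant on mouse lymphocytes. On the way down, Npl, a lyase, cleaves free sialic acid to ManNAc and pyruvate, and Renbp interconverts GlcNAc and ManNAc. B cells carry Cd22, a Siglec that binds the glycan that St6gal1 makes and prefers Neu5Gc in mice.

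The values are Affymetrix signals on a linear scale, set to a common level on each array, and signals of different probe sets do not give the relative levels of their transcripts. Brightness is used here only to pick the main probe set of a gene. Probe sequences were not used, so whether the strains differ in sequence under the probes, those of Npl, Cmah and Gne among them, was not tested. Differences were taken on the log2(signal + 10) scale and tested with limma. A probe set was called at an adjusted p under 0.05 after Benjamini-Hochberg adjustment over the 38293 probe sets whose signal reached 50 in 5 or more mice. All 17 probe sets of the 8 genes passed this filter. In bulk RNA, fewer cells of a type and less RNA per cell cannot be told apart. The labels do not say that mice of a group came from separate litters, so the p-values measure the spread between these mice.

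RNA quality differed between the strains. Gapdh probes near the 3' end of the transcript were set against those near its 5' end, a ratio that rises with degradation. It was over 2 on the 430A array in 5 of the 30 mice, 3 of them NON, 2 of them C57 and none of them NOD. On the 430B array it was over 2 in the same 5 and in a C57 mouse of 4 weeks (replicate 3, 2.13). That mouse was at 1.83 on the 430A array and was not left out with the 5. A NOD mouse of 4 weeks (replicate 3) correlated less with its group (median r = 0.739) than the rest of that group did (at least 0.847). For the enzymes and the further genes of the pathway, calls that were lost without the 5 mice of high Gapdh ratio are given with both values. Calls of the cell type markers and of neighbouring genes on the chromosome were not checked without these mice.

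The 250 bases before the start of Npl are shown because Npl was the only one of the 8 genes to be called at both ages. They are from RefSeq (GRCm38.p6, chr1:153549715-153549964, minus strand), which is the C57BL/6 reference and not the NOD or NON sequence. Capitals mark an E-box core, CACGTG, a motif that reads the same on both strands, which begins 51 bases before the start.

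Npl: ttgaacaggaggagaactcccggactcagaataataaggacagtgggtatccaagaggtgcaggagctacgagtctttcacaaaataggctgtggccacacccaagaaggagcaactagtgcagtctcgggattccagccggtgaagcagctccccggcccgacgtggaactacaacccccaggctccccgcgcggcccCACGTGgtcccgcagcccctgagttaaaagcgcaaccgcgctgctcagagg

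The core was found in 6.02% of the 32851 RefSeq promoter windows of the same length. Among the 10 windows found for 6 of the 8 genes it was present in 1, that of Npl. A further pair of motifs, GAGGAA (or TTCCTC on the other strand) and TATAAA (or TTTATA), were searched as well. They were found in 23.3% and 12.4% of all windows and were not in the Npl window, while GAGGAA or its reverse was in the windows of Cmas and Renbp. A match is only a match of letters.

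At 2 weeks, 2 of the 17 probe sets were called across the 3 strains, 1 of Npl and 1 of Cmah. Over all probe sets 1.66% were called in that test. At 4 weeks 1 of the 17 was called, that of Npl, where 1.51% of all were. At an unadjusted p under 0.05, 10 of the 17 (58.8%) differed between strains at 2 weeks, against 14.1% of all probe sets. These 10 belonged to Cmah, Gne, St6gal1 and Npl only, and every Cmah probe set but 1447019_at was among them. Probe sets of the same gene were counted separately and are not independent. At 4 weeks 2 of the 17 (11.8%) passed, against 13.4%. The 5 NOD mice lay wholly above or wholly below the 10 control mice on 3 of the 17 probe sets at 2 weeks (Npl and 1 of Cmah above, 1 of Gne below), where 0.528% of all probe sets did. They did so on 2 at 4 weeks (Npl and Renbp, both above), where 0.744% of all did.

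The breakdown enzyme Npl stood highest in NOD mice at both ages. At 2 weeks its signal was 199.5, 225.3, 193.6, 196.6 and 247.1 in the 5 NOD mice. It was 94.5, 97.5, 143.8, 117.1 and 111.6 in NON and 67.8, 87.7, 64.4, 81.4 and 120.2 in C57. The lowest NOD mouse was above the highest control mouse, and NON and C57 overlapped. The NOD mean (212 ± 23.1, SD, n = 5) was 1.88 times that of NON (113 ± 19.7) and 2.52 times that of C57 (84.3 ± 22.2), with an adjusted p of 0.00443 across the strains. Against C57 the log2 difference was 1.26 (SE 0.19, adjusted p = 0.00249). Against NON it was 0.86 (SE 0.19, 95% interval 0.46 to 1.26) and just missed the threshold at an adjusted p of 0.0556.

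At 4 weeks the gap was wider in the means. Npl was at 275.4, 159.0, 219.8, 308.7 and 336.8 in NOD, at 50.3, 71.3, 119.4, 111.0 and 51.3 in NON, and at 80.7, 58.9, 57.9, 78.6 and 63.0 in C57. Again every NOD mouse lay above every control mouse, and the NOD mice spread more than at 2 weeks (SD 71.3 against 23.1). The NOD mean was 3.22 times that of NON (log2 difference 1.60, SE 0.26, adjusted p = 0.00899) and 3.83 times that of C57 (1.76, SE 0.26, adjusted p = 0.00309). NON minus C57 was 0.16 (95% interval -0.41 to 0.72, adjusted p = 0.906) at this age. Without the 5 mice of high Gapdh ratio, which leaves 3 NON mice at 4 weeks, NOD minus NON was 1.27 with an adjusted p of 0.128 and so no longer called, while the test across the strains still was (adjusted p = 0.0116). Without NOD replicate 3 the differences were 1.65 and 1.81. Npl is measured here by a single probe set (1424265_at). A probe set that the study lists as Npl has no gene in the annotation used here, so it was not counted, and its NOD mean was below that of both controls at 2 weeks (20.9 against 45.1 for NON and 69.9 for C57, adjusted p = 0.248 across the strains), while at 4 weeks it was above that of C57 and below that of NON (20.1 against 13.8 and 50.5, adjusted p = 0.265).

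Renbp, which works at the next step of breakdown, had its highest mean in NOD as well, and its groups overlapped at 2 weeks. It was at 208.0, 225.7, 330.9, 207.6 and 331.4 in NOD, from 179.1 to 259.8 in NON and from 109.7 to 222.0 in C57 at 2 weeks with an adjusted p across the strains of 0.397. At 4 weeks it was at 372.1, 276.0, 384.8, 364.4 and 331.9 in NOD, at 164.4, 226.3, 198.7, 247.3 and 156.5 in NON, and at 264.4, 194.3, 197.1, 228.0 and 190.4 in C57. All NOD mice lay above all control mice at 4 weeks, the closest pair being 276.0 and 264.4. The NOD mean (346 ± 43.7) was 1.74 times that of NON and 1.61 times that of C57, but the test missed the threshold (adjusted p = 0.0678 across the strains). It passed under 3 of 10 other settings, among them all 30 mice in 1 fit (adjusted p = 0.0376) and a signal filter of 100 (0.0452). Under the rest the adjusted p reached up to 0.216. On leaving out single mice it ran from 0.0592 to 0.164 and never passed.

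**Figure D1:**
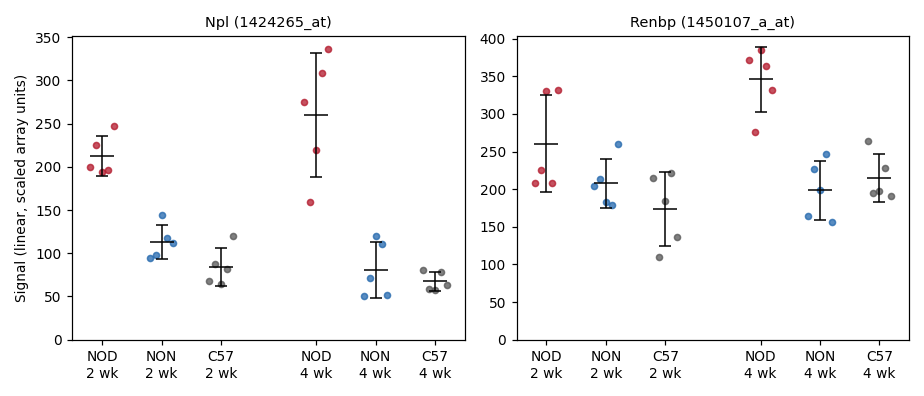
Signals of Npl and Renbp (linear array units) in each of the 30 mice, by strain and age, with 1 point per mouse and the mean ± SD of 5 mice as a black bar. The NOD points of Npl lie above all control points at both ages, and those of Renbp do at 4 weeks, between 276.0 and 384.8.

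Macrophages take up and break down glycoproteins, so the macrophage and monocyte markers are given beside these enzymes. Summed over the 7 markers (Csf1r, C1qa, C1qb, C1qc, Vcam1, Cd68 and Ly86), the signal at 2 weeks ran from 7643 to 11037 in NOD, from 6398 to 10294 in NON and from 5353 to 7280 in C57. NOD therefore overlapped with NON and lay above C57. At 4 weeks the sums were 10196 to 20366, 8588 to 14991 and 5351 to 14367, with all 3 strains overlapping. None of the 7 markers was called between strains at either age, and none was at 0. The median log2 difference of the 7 was 0.64 for NOD minus NON and 1.23 for NOD minus C57 at 2 weeks, and 0.78 and 0.98 at 4 weeks. Their part in the differences of Npl and Renbp was not tested.

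Cmah, the enzyme that makes Neu5Gc, was measured by 6 probe sets, and at 2 weeks the NOD mean was above both control means on all 6, of which 1 (1447019_at) turned to lower in NOD than in NON with the arrays scaled to the same median. The probe set that was called (1421214_at) had a signal of 559.0, 874.5, 589.3, 1035.1 and 692.4 in NOD, of 212.7, 256.7, 302.0, 299.1 and 161.8 in NON, and of 218.4, 395.6, 503.5, 352.4 and 241.8 in C57. No NOD mouse overlapped with a control mouse. The NOD mean (750 ± 201, SD, n = 5) was 3.04 times that of NON (246 ± 59.7) and 2.19 times that of C57 (342 ± 117), with an adjusted p of 0.0112 across the strains. The log2 difference was 1.56 (SE 0.27, adjusted p = 0.0107) against NON and 1.13 (SE 0.27, 95% interval 0.57 to 1.70, adjusted p = 0.0647) against C57.

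A second probe set of Cmah (1428043_a_at) came close at 2 weeks. It was at 350.4, 283.1, 436.4, 500.5 and 465.5 in NOD, at 161.2, 71.2, 269.6, 160.6 and 108.5 in NON, and at 114.2, 229.4, 292.6, 150.8 and 140.1 in C57. Only the NOD mouse at 283.1 and the C57 mouse at 292.6 crossed. Its NOD mean was 2.64 times that of NON and 2.20 times that of C57 (adjusted p = 0.0579 across the strains). Over the 30 mice these 2 probe sets correlated at r = 0.784, the highest of the 15 pairs of Cmah probe sets.

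The brightest Cmah probe set (1436039_at, on the other array) had the same order of means with smaller gaps. At 2 weeks it was at 7940.5, 6436.9, 4898.5, 5562.4 and 4553.8 in NOD, at 3242.0, 4016.2, 4777.9, 2789.5 and 1744.5 in NON, and at 4240.3, 3717.0, 5532.9, 6635.4 and 4815.8 in C57. NOD overlapped with both controls, and NON was lowest. NOD minus NON was 0.88 (SE 0.27), NON minus C57 was -0.64 (SE 0.27) and NOD minus C57 was 0.24 (SE 0.27), and none was called (adjusted p = 0.214 across the strains). The remaining Cmah probe sets had log2 differences for NOD minus NON of 0.69 (1440458_at), 0.93 (1440517_x_at) and 0.05 (1447019_at), the last of which was -0.05 under that scaling. The 6 probe sets of Cmah therefore differed in the size of the difference. The T cell marker sums (Cd3e, Cd3d, Cd3g, Thy1 and Cd2) were also low in NON at 2 weeks, from 783.3 to 2539.4 against 2728.8 to 6139.5 in NOD and 3271.7 to 6408.4 in C57. Of these 5 markers, 2 were called lower in NON than in C57 and 1 lower than in NOD, in tests that called 1.56% and 0.546% of all probe sets. The B cell sums were 9883.6 to 23237.8 in NON, 17269.5 to 27287.1 in NOD and 22569.2 to 29597.9 in C57, with none called. Their part in the Cmah differences was not tested.

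At 4 weeks no Cmah probe set was called. The probe set called at 2 weeks was at 540.2, 484.0, 476.9, 649.0 and 666.5 in NOD, from 206.3 to 599.4 in NON and from 395.6 to 713.8 in C57. The NOD mean was then 1.48 times that of NON and 1.15 times that of C57, and the groups overlapped (adjusted p = 0.453 across the strains). The brightest probe set had means of 5481 ± 1350 (NOD), 5610 ± 857 (NON) and 5404 ± 911 (C57), and its 95% interval for NOD minus NON ran from -0.48 to 0.38. The strain by age interaction was not called for either (adjusted p = 0.693 and 0.691).

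**Figure D2:**
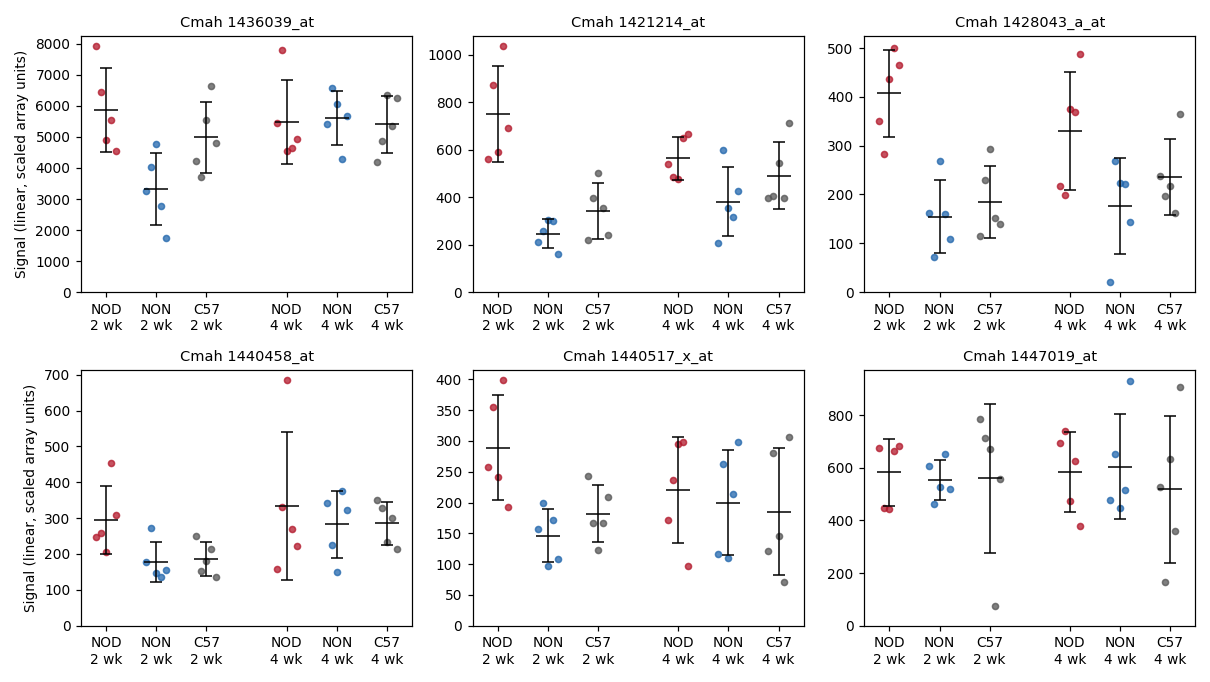
Signals of the 6 Cmah probe sets (linear array units, each panel with its own scale) in the 30 mice, by strain and age, with 1 point per mouse and the mean ± SD of 5 mice as a black bar. On 1421214_at the NOD points at 2 weeks (559.0 to 1035.1) lie above all control points, and at 4 weeks all groups overlap on all 6.

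Among the enzymes of synthesis, Gne, the epimerase and kinase that sets the pace of the pathway, went the other way at 2 weeks. The probe set 1448810_at was at 134.3, 153.9, 173.7, 141.2 and 163.4 in NOD, at 271.8, 239.7, 180.5, 229.3 and 256.7 in NON, and at 228.7, 297.9, 297.7, 212.4 and 209.6 in C57. Every NOD mouse lay below every control mouse, by a margin of 173.7 against 180.5 at the closest. NOD was at 0.651 of the NON mean and 0.615 of the C57 mean, and the test missed the threshold (adjusted p = 0.106 across the strains). It passed with all 30 mice in 1 fit (adjusted p = 0.029). The other Gne probe set (1455583_at) overlapped, at 416.8 to 760.7 in NOD, 610.2 to 803.5 in NON and 611.1 to 1003.4 in C57 (adjusted p = 0.304). At 4 weeks the first probe set had means of 216 ± 9.51, 207 ± 41.2 and 235 ± 36.3, and the strains overlapped on both (adjusted p = 0.847 and 0.581).

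Nans, the synthase of the phosphorylated sialic acid, and Cmas, the activating enzyme, overlapped between the strains at both ages. The brighter Nans probe set ran from 255.9 to 459.7 in NOD, 299.1 to 474.9 in NON and no higher than 348.2 in C57 at 2 weeks. Its NOD minus NON difference was -0.24 (95% interval -0.70 to 0.22) at 2 weeks and 0.20 (-0.14 to 0.54) at 4 weeks. The second Nans probe set had no adjusted p across the strains under 0.712. Cmas was at 564.6 to 868.4 in NOD, 742.8 to 978.6 in NON and 655.1 to 812.8 in C57 at 2 weeks. Its largest difference was NON minus C57 at 4 weeks (means of 983 and 711, log2 difference 0.46, SE 0.17, adjusted p = 0.35).

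The transferases showed no strain call. St6gal1, which makes the alpha2,6-linked glycan, was at 1073.7, 1477.9, 1047.8, 1329.1 and 929.8 in NOD, at 935.3, 1592.5, 1153.3, 1074.9 and 638.7 in NON, and at 1556.2, 1719.5, 1695.5, 1795.3 and 1500.7 in C57 at 2 weeks on its brighter probe set (1420928_at). C57 was above all NOD mice and all but 1 NON mouse, with NON minus C57 at -0.67 (SE 0.22, adjusted p = 0.173). The other St6gal1 probe set (1420927_at) had C57 lowest instead of highest at 2 weeks (333 ± 118 for NOD, 227 ± 79.0 for NON, 168 ± 42.7 for C57; adjusted p across the strains 0.303), and over the 30 mice these correlated at r = -0.45. St3gal1, which caps core O-glycans in alpha2,3 linkage, ran from 60.6 to 193.9 in NOD, 65.8 to 130.8 in NON and 71.3 to 122.1 in C57 at 2 weeks (adjusted p = 0.901), and at 4 weeks NOD minus C57 was -0.30 (95% interval -0.68 to 0.08). Its dimmer probe set varied up to 529.8 within a group and correlated with the first at r = 0.0623.

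Pair by pair, 1 of the 17 probe sets was called for NOD minus NON at 2 weeks (Cmah 1421214_at, 0.546% of all probe sets called), 1 for NOD minus C57 at 2 weeks (Npl, 0.841% of all), 1 for NOD minus NON at 4 weeks (Npl, 0.582% of all) and 1 for NOD minus C57 at 4 weeks (Npl, 1.13% of all). None was called for NON minus C57 at 2 weeks (1.56% of all) or at 4 weeks (0.794% of all), where 2 and 1 had an unadjusted p under 0.05 (11.8% and 5.88%, against 13.9% and 9.71% of all probe sets). At that unadjusted level NOD minus NON had 7 at 2 weeks (41.2% against 9.45% of all) and 4 at 4 weeks (23.5% against 10.7%), and NOD minus C57 had 10 (58.8% against 11.7%) and 2 (11.8% against 13%). At 2 weeks 12 of the 17 were higher in NOD than in NON (median log2 difference 0.19, against 0.05 over all probe sets) and 13 were higher than in C57 (0.27 against 0.07). At 4 weeks 11 were higher against each (0.12 against 0.04, and 0.16 against 0.04). With the arrays scaled to the same median, the median over all probe sets moved by -0.146 for NOD minus C57 at 2 weeks and by -0.116 at 4 weeks. Under it, 2 Cmah probe sets (1436039_at and 1440458_at) turned to lower in NOD than in C57 at 4 weeks, and the 2 Gne probe sets to lower in NOD than in NON. NOD comparisons share the same 5 NOD mice, and their counts are not independent.

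**Figure D3:**
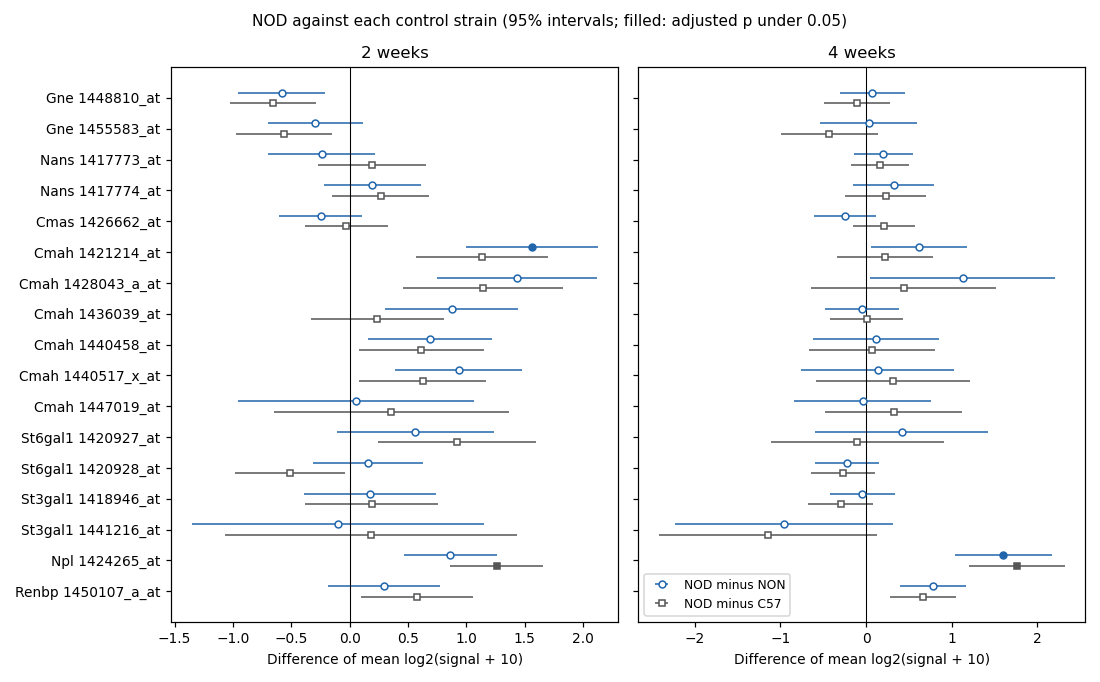
Differences of mean log2(signal + 10) between NOD and each control strain for the 17 probe sets at 2 and 4 weeks, with 95% intervals; circles are NOD minus NON, squares NOD minus C57, and filled symbols have an adjusted p under 0.05. The filled symbols are Npl (1.26 against C57 at 2 weeks, 1.60 and 1.76 at 4 weeks) and Cmah 1421214_at (1.56 against NON at 2 weeks).

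The main probe sets, the brightest of each gene, ranked in the order Npl (1.76), Cmah (0.88), Renbp (0.78), St6gal1 (0.67), Gne (0.56), Cmas (0.46), Nans (0.43) and St3gal1 (0.30) by the larger of their ranges of strain means (log2) over the 2 ages. These ranges are a description and were not tested against each other.

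With age, 1 of the 17 probe sets was called. In NON mice St6gal1 (1420928_at) rose from a mean of 1079 ± 348 at 2 weeks to 1776 ± 250 at 4 weeks. Its values at 4 weeks were 2174.5, 1713.4, 1509.0, 1659.0 and 1823.5, and only the 2 week mouse at 1592.5 overlapped with them. The change was 0.76 on the log2 scale (SE 0.19, adjusted p = 0.0365), and over all probe sets 1.46% were called for age in NON, 0.812% as higher and 0.65% as lower at 4 weeks. Without the mice of high Gapdh ratio it was 0.80 with an adjusted p of 0.124, and it was also lost on leaving out any 1 of 6 NON mice, at adjusted p from 0.0606 (2 week replicate 4) to 0.152 (2 week replicate 5). The mice left out in those 6 cases were 2 week replicates 1, 4 and 5 and 4 week replicates 1, 2 and 5. The other St6gal1 probe set changed by -0.35 (95% interval -1.19 to 0.50) in the same mice.

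The brightest Cmah probe set came next in NON mice. It went from 3314 ± 1160 to 5610 ± 857, a log2 difference of 0.82 (SE 0.23, adjusted p = 0.0697). Npl had a lower mean at 4 weeks in NON (-0.50, SE 0.22, adjusted p = 0.316) and in C57 (-0.26, SE 0.22, adjusted p = 0.952) and a higher one in NOD (0.24, SE 0.22, adjusted p = 0.809). In NOD mice none of the 17 was called for age, where 0.146% of all probe sets were, and 2 had an unadjusted p under 0.05 (11.8%, against 8.9% of all). Those 2 were Gne (1448810_at, 0.47, SE 0.16, adjusted p = 0.334) and Renbp (0.42, SE 0.19, adjusted p = 0.538). In C57 none was called either (0.46% of all), and 1 had an unadjusted p under 0.05 (5.88%, against 6.7% of all), St3gal1 (1418946_at, 0.56, SE 0.22, adjusted p = 0.543).

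The interaction of strain and age was not called for any of the 17. The lowest adjusted p was 0.659 (Gne 1448810_at), and over all probe sets 0.00261% were called. An unadjusted p under 0.05 was found for 3 of the 17 (17.6%), against 6.9% of all. A difference called at 2 weeks and not at 4 weeks, as for Cmah, was therefore not shown to differ between the ages.

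**Figure D4:**
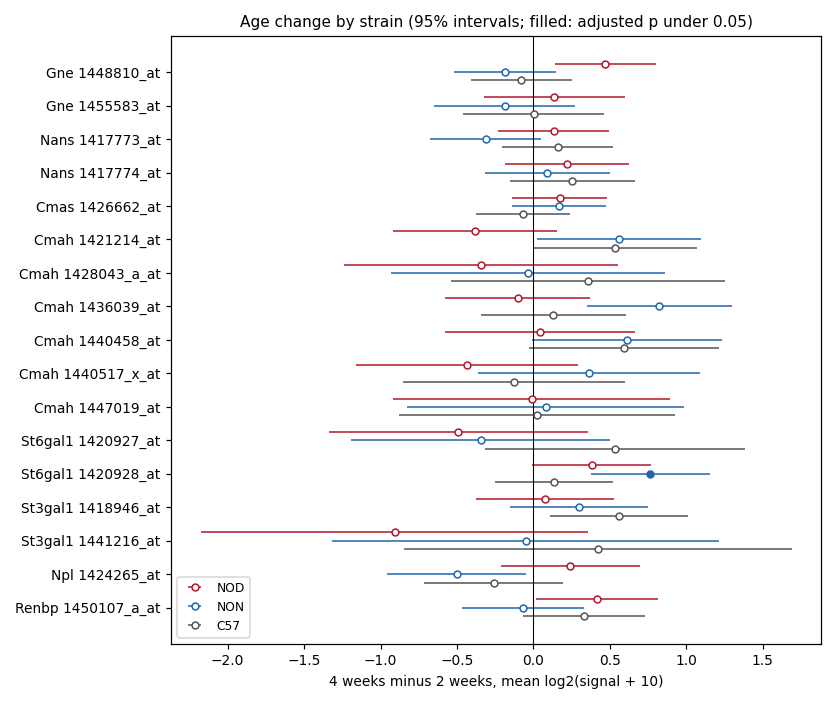
Change from 2 to 4 weeks in mean log2(signal + 10) for the 17 probe sets in NOD, NON and C57 mice, with 95% intervals; filled symbols have an adjusted p under 0.05. St6gal1 1420928_at in NON (0.76) carries the only filled symbol.

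B cells are a main source of St6gal1, so the B cell markers are given beside it. Their summed signal over the 4 measured markers (Cd79a, Cd79b, Ms4a1 and Pax5) ran from 9884 to 23238 at 2 weeks in NON and from 20186 to 25221 at 4 weeks. The sums overlapped and none of the 4 was called for age in NON. Ptprc, the pan-leukocyte marker, was called higher at 4 weeks in NON (0.95, adjusted p = 0.0266). So were 3 of the 5 T cell markers and 1 of the 7 macrophage and monocyte markers, Ly86, where 0.812% of all probe sets were. Called lower at 4 weeks in NON, as were 0.65% of all probe sets, were Mpo and Ctsg of the 9 neutrophil granule markers. Ppbp of the 5 platelet and megakaryocyte markers and Birc5 of the 4 measured dividing cell markers were also called lower. Their part in the age differences of St6gal1, Cmah, Cd22, St8sia6 and Nanp was not tested. The B cell, T cell and leukocyte markers were measured in every mouse, and so were erythroid and neutrophil granule markers, which unsorted spleen also holds.

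Of 44 further genes of the pathway, 42 were measured, and each is represented by its brightest kept probe set only. Their other probe sets are not given. None of the 42 was called between strains at 2 weeks, where 1.66% of all probe sets were. At 4 weeks 1 of the 42 was called, where 1.51% of all were. St6galnac2, a transferase that adds sialic acid to O-glycans, was at 30.5 to 208.5 in NOD and 15.3 to 253.5 in NON at 4 weeks, and at 3.1 to 8.4 in C57 (adjusted p = 0.0144 across the strains). At 2 weeks the order was similar (66.4 ± 48.1, 38.5 ± 34.5 and 5.06 ± 2.32) and missed the threshold (adjusted p = 0.0679). NOD and NON overlapped at both ages. Without the mice of high Gapdh ratio the 4 week test missed the threshold (adjusted p = 0.0666). The neutrophil granule marker sums at 4 weeks were also lowest in C57, at 21420.5 to 37417.5 against 28272 to 50203 in NOD and 53775.4 to 81039.1 in NON. Against C57, 2 of 9 markers were called higher in NOD (1.13% of all probe sets were called) and 4 higher in NON (0.794% of all). The dividing cell sums at 4 weeks were 1448.7 to 2762.7 in C57, 1945 to 5128.1 in NOD and 3584.5 to 6518.9 in NON, and the erythroid sums overlapped. At 2 weeks C57 was not apart. The neutrophil granule sums were then 61938.9 to 83505.8 in C57, 57360.3 to 121615 in NOD and 51662.6 to 99529.6 in NON. The dividing cell sums were 3242.7 to 6486.9, 3722.1 to 8375.8 and 5512.9 to 10416.8 in the same order. Their part in the St6galnac2 and St3gal5 differences was not tested.

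St3gal5, the synthase of the ganglioside GM3, only just passed for NOD minus NON at 4 weeks. It was at 268.8, 243.8, 319.7, 203.6 and 212.3 in NOD and at 354.2, 465.0, 549.6, 543.4 and 390.4 in NON, without overlap (log2 difference -0.86, SE 0.18, adjusted p = 0.0494). C57 was at 287.8 to 337.4, below all NON mice and overlapping with NOD. The test across the strains missed the threshold (adjusted p = 0.0595), and St3gal5 is named here for its pairwise call, after its values were seen. That call was lost without the mice of high Gapdh ratio (-1.04, adjusted p = 0.0808) and on leaving out any 1 mouse of that age other than NOD replicate 3 or NON replicate 1 (up to 0.138). At 2 weeks the NOD mean was lower too (267 ± 28.5 against 460.2 ± 113), with an adjusted p of 0.173.

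With age, 3 of the 42 were called, all in NON mice, where 1.46% of all probe sets were called. Cd22, the Siglec of B cells, went from 1132.4 to 2383.7 at 2 weeks up to 2742.1 to 4497.1 at 4 weeks, without overlap (log2 difference 0.93, SE 0.21, adjusted p = 0.0231). St8sia6, an alpha2,8-sialyltransferase, went from 343.6 to 1195.5 up to 1428.2 to 1816.7 (1.15, SE 0.23, adjusted p = 0.00897). Nanp, the phosphatase that releases free Neu5Ac, went the other way, from 330.1 to 683.0 down to 224.0 to 318.7 (-0.79, SE 0.19, adjusted p = 0.0298). Without the mice of high Gapdh ratio St8sia6 was still called (1.35, adjusted p = 0.0389), while Cd22 (0.96, adjusted p = 0.141) and Nanp (-0.87, adjusted p = 0.118) were not. Cd22 was also lost without NON replicate 5 of 2 weeks or replicate 2 or 5 of 4 weeks (up to 0.105), and Nanp without replicate 1, 3, 4 or 5 of 2 weeks or 1, 2 or 5 of 4 weeks (up to 0.128). None of the 42 was called for age in NOD or C57 (0.146% and 0.46% of all probe sets), and none for the interaction (0.00261% of all).

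**Figure D5:**
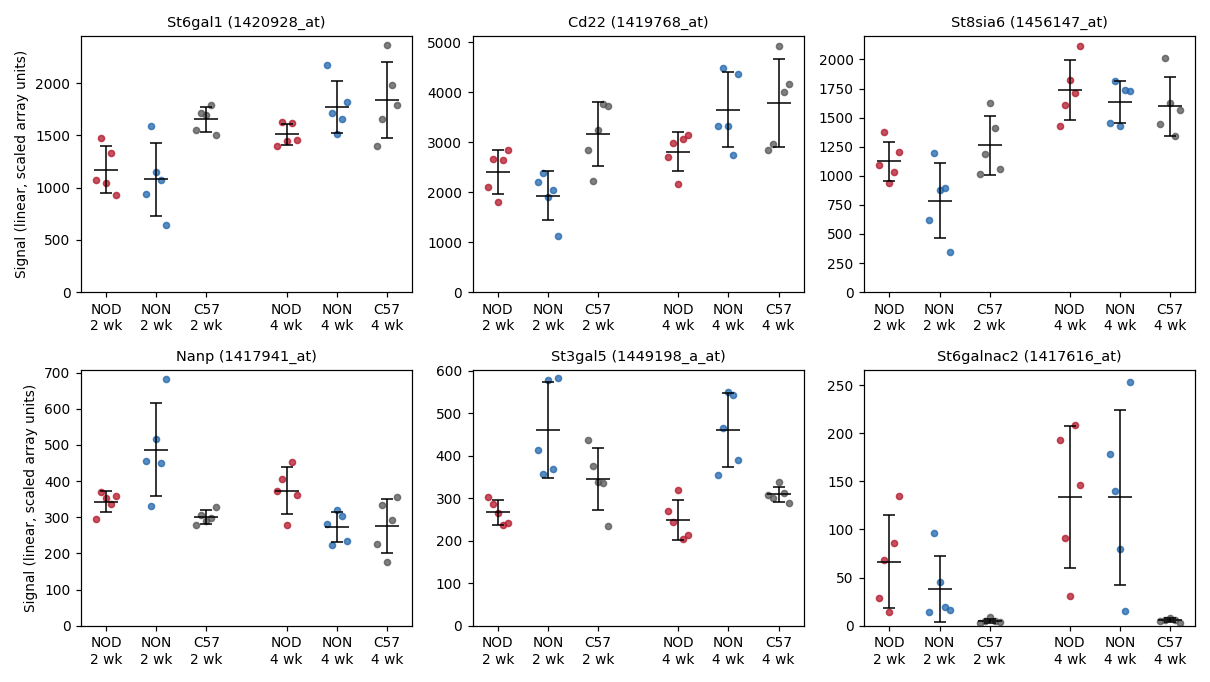
Signals of St6gal1 (1420928_at) and of the 5 further genes of the pathway that were called in a comparison (linear array units, each panel with its own scale), with 1 point per mouse and the mean ± SD of 5 mice as a black bar. In NON mice Cd22 and St8sia6 lie higher at 4 weeks than at 2 weeks without overlap, Nanp lies lower, and St6galnac2 is below 10 in all C57 mice.

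By group of the pathway, the hexosamine supply genes (6 of 6 measured), the genes of release and salvage such as the neuraminidases Neu1 and Neu3 (8 of 9) and the remaining transporters had no strain call at either age. The 18 other sialyltransferases held the calls of St6galnac2, St3gal5 and St8sia6, and the 7 measured lectins of 8 that of Cd22. Neu4 and Siglecf had no probe set among those kept.

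The genes whose signals followed those of the 3 members with the widest strain range are given by Pearson's r over the 30 mice, as a description. Npl was followed most closely by both probe sets of Cap1 (r = 0.872 and 0.857), an actin-binding protein gene whose means were 1902 in NOD, 44.1 in NON and 37.4 in C57 at 2 weeks on the first, and then by Serpina1b (r = 0.824). The brightest Cmah probe set was followed by Klhdc1 (0.813), Gm30054 (0.798) and Dpp4 (0.795), all with their lowest mean at 2 weeks in NON. Renbp was followed by Adam23 (0.78), Fam234b (0.75) and Xcr1 (0.744). The mice share strain and age, which moves many genes together.

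The genes next to Npl and Cmah in RefSeq's order on the chromosome were looked at in the same fits. Of the 5 measured genes on each side of Npl, 1 of 10 was called at 2 weeks and 1 at 4 weeks, where 1.66% and 1.51% of all probe sets were. It was the same gene, E330020D12Rik (adjusted p = 0.00126 and 0.0431). Its means in NOD, NON and C57 were 9352.5, 1275.6 and 2280.9 at 2 weeks and 5902.3, 2124.1 and 1983.9 at 4 weeks. Every NOD mouse lay above every control mouse at both ages, as for Npl. The nearest on either side, Dhx9 and Rgs8, were not called (adjusted p = 0.886 and 0.999 at 2 weeks). Beside Npl an unadjusted p under 0.05 was found for 1 of 10 at 2 weeks and 2 of 10 at 4 weeks. Beside Cmah none of 10 was called at 2 weeks, and 3 had an unadjusted p under 0.05 (14.1% of all probe sets did). At 4 weeks 4 of 10 had an unadjusted p under 0.05 (13.4% of all probe sets did), and 1 was called, Gm11346 (adjusted p = 0.0117). Its mean at 4 weeks was lower in NOD (67.9) than in NON (374) and C57 (389). The part of chromosomal position in these differences was not tested.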

How the data were processed

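Spleen leukocyte RNA of 30 mice was hybridised to Affymetrix 430A and 430B arrays, 60 in all. The values the authors deposited are Microarray Suite signals, an intensity per probe set on a linear scale. Their methods name global scaling to a target of 100, while the deposited 2% trimmed mean was 250 on each array. Scaling assumes the same total signal on each array, so differences are relative to it. The study's present and marginal flags were not used here. Control probe sets were left out, and 38293 of 45037 probe sets with a signal of at least 50 in at least 5 mice were kept (17815 on 430A, 20478 on 430B). Median signals ran from 84.8 to 125.6 (430A) and 125.8 to 169.3 (430B), and the number of arrays limits the precision. Of the 45037, the annotation names 34945 by 1 symbol, 932 by several and 9160 by none.

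The log2(signal + 10) scale understates differences of dim probe sets. Strains were compared at each age in a fit of the 15 mice (F-test and pairs) and ages in a fit of all 30, in limma 3.58.1 (R 4.3.3), and p-values were adjusted by Benjamini and Hochberg's method over the 38293. Fold differences are ratios of mean signals. The fits were tested on simulated data. Alternatives were pseudocounts of 1 and 50, no filter, a filter of 100, quantile normalization, scaling to a common median, a replicate block, leaving out each mouse, other fits, and the methods' one-way ANOVA and t-test. The fit without mice of high Gapdh ratio was added after seeing the data. The genes named were all probe sets of the 8 members, further pathway genes whose brightest probe set was called, and for 3 members the 3 probe sets of highest r. The members and the lists were chosen with earlier results of these data known. Promoter sequences are RefSeq's (GRCm38.p6). The genome build behind the arrays is not given in the sources used here, so no coordinates of probe sets are given.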

Additional observations from a re-analysis of the deposited data

Results flagged for a closer look

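In 6 of the 102 groups of 5 mice (17 probe sets in 6 groups), 1 mouse lay far from the other 4. Chance alone flags about 1 in 20 such groups. St3gal1 1441216_at, the dim probe set, accounted for 3 of them: it was at 328 in replicate 5 of the NOD mice of 2 weeks (the others at 52.8 to 128), at 19.5 in replicate 3 of the NOD mice of 4 weeks (49.8 to 59.9) and at 530 in replicate 5 of the C57 mice of 4 weeks (33.8 to 135). Nans 1417774_at was at 192 in replicate 1 of the NOD mice of 4 weeks (313 to 342). St6gal1 1420927_at was at 89.3 in replicate 2 of the NON mice of 2 weeks (233 to 277), the mouse with the highest Gapdh ratio. Cmah 1436039_at was at 7810 in replicate 2 of the NOD mice of 4 weeks (4550 to 5450). None of these 4 probe sets was called in a strain or age comparison.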

How the results depend on the processing

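The call of Npl across the strains kept its side of the threshold at both ages under all 10 other settings (adjusted p 0.00211 to 0.0174 at 2 weeks, 5.36e-06 to 0.0157 at 4 weeks) and on leaving out any mouse, and so did that of Cmah 1421214_at at 2 weeks (0.00107 to 0.0294). Across the strains 2 of the 17 probe sets were called at 2 weeks and 2 to 3 on leaving out single mice. At 4 weeks 1 was called, 1 on leaving out any mouse, and 2 with a filter of 100, with all 30 mice in 1 fit and with the methods' one-way ANOVA. Over the 6 pairwise tests 4 calls were made, 4 to 5 on leaving out single mice, and 7 with a pseudocount of 50 and with all 30 mice in 1 fit. For age, 1 call became 0 with scaling to the same median, with the 10 mice of 1 strain, with the methods' t-test after adjustment and without the mice of high Gapdh ratio, and ran from 0 to 2 on leaving out single mice (the second being the brightest Cmah probe set, in NON, without NON replicate 2 or 3 of 2 weeks). The interaction stayed at 0 calls under each setting. The causes were not tested. The labels tie nothing to the replicate numbers, so the numbers were not taken to pair the mice. Deviations of mice with the same number had a mean r of 0.0304 (-0.149 to 0.187, 8 of 75 pairs over 0.1). For different numbers it was -0.00748 (10 of 300 over 0.1). Mice of the same number were therefore somewhat more alike, which the main fits did not take into account. Of the 30 mice, 12 correlated best with a mouse of their own number. With a replicate block the counts were 2, 1, 5, 1 and 0 in the order above, and Cmah 1421214_at was called for NOD minus C57 at 2 weeks (adjusted p = 0.0449). Npl passed for NOD minus NON at 2 weeks with a pseudocount of 50 (0.0491) and a filter of 100 (0.0381). The methods' one-way ANOVA also called Renbp at 4 weeks (0.0232) and Gne 1448810_at at 2 weeks (0.0359).

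Over all probe sets, the counts called moved by more than 1.5 times as follows. Across the strains at 4 weeks, 578 became 960 with all 30 mice in 1 fit, 367 with a replicate block and 271 without the mice of high Gapdh ratio, and at 2 weeks 635 became 993 with all 30 mice. At 4 weeks, NOD minus NON went from 223 to 101 without the mice of high Gapdh ratio. NOD minus C57 went from 432 to 744 with all 30 mice, 239 with the block and 233 without those mice, and NON minus C57 from 304 to 490, 189 and 117. NON minus C57 at 2 weeks went from 597 to 900 with all 30 mice. For age, NOD, NON and C57 had 56, 560 and 176 calls, which became 6, 23 and 41 with the 10 mice of 1 strain and 1, 75 and 29 with the methods' t-test after Benjamini-Hochberg adjustment. At the methods' own unadjusted threshold that t-test passed 1 of the 17 probe sets, Gne 1448810_at in NOD (adjusted p = 0.16). Without the mice of high Gapdh ratio NON had 50 and C57 had 81, and with scaling to the same median NOD had 18 and NON 321. The interaction had 1 call, 4 without those mice and 0 with a filter of 100. Leaving out single mice gave 159 to 909 calls for age in NON, 12 to 98 in NOD, 74 to 217 in C57, 293 to 1005 for NON minus C57 at 2 weeks and 191 to 383 at 4 weeks, 213 to 405 and 224 to 506 for NOD minus C57, 136 to 194 and 123 to 231 for NOD minus NON, 381 to 624 across the strains at 4 weeks and 1 to 3 for the interaction.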
